A study of Mus musculus with 8 samples.

Results

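The smooth muscle contractile genes are the genes of the actin and myosin filaments, and of the proteins that bind them, that smooth muscle and myofibroblasts hold in large amounts. The 10 genes described here are Acta2, Actg2, Tagln, Myl9, Cnn1, Cnn2, Tpm1, Tpm2, Smtn and Myh11, out of 19938 genes measured. They were chosen by name, each with the probe set that carries its single gene symbol in the platform annotation, and all 10 had exactly 1 such probe set. RNA came from hepatic stellate cells, the liver pericytes that store retinoids, which were sorted from mouse liver by retinoid autofluorescence, lysed at once and hybridised to Affymetrix Mouse Gene ST arrays. Of the 8 arrays, 4 were of Lhx2 floxed mice that lacked Mx1Cre (control 1 to 4) and 4 of Mx1Cre+ Lhx2 floxed mice (knockout 5 to 8). Both groups had a C57BL/6J background and had received poly(I:C) 3 times, with the cells taken 2 weeks later. Ages are not stated in the labels. Mx1Cre is driven by an interferon-responsive promoter in many cell types, and only the knockout mice carried it, so the transgene itself, loss of Lhx2 in stellate cells and its loss in other cells cannot be told apart. Whether each array had an animal of its own is not said in the labels, so the spread behind each p-value may be technical only, and the number of arrays limits the precision.

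In smooth muscle, phosphorylation of the myosin regulatory light chain lets myosin heads pull on actin filaments, while tropomyosins, calponins and other thin-filament proteins steady the filament and restrain the myosin. Many genes of this apparatus carry CArG boxes, the DNA element bound by serum response factor (SRF), which works with the coactivators myocardin, MRTF-A and MRTF-B. In injured liver, stellate cells that become myofibroblasts are known to gain smooth muscle actin and other contractile proteins, and Acta2 is the usual marker of that change. The series title names stellate cell activation as the question. Levels are deposited log2 expression values, so a difference of 1 is a doubling. A gene was called where limma's moderated test gave an adjusted p under 0.05 over all 19938 genes.

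The contractile genes did not share a direction in the knockout. Tagln rose 1.71-fold and Smtn fell to 77.7% of its control level, while the other 8 genes, Acta2 among them, did not pass the test. With 2 of 10 genes called (20.0%), the share over all genes tested was 7.38%, of which 3.76% were higher and 3.63% lower in the knockout. A further gene, Tpm1, had groups that did not overlap without passing the test, which made 3 of 10 genes with separate groups against 12.7% of all genes (6.38% with the knockout higher, 6.32% with it lower). The median difference of the 10 genes was -0.06, beside -0.02 over all genes, and the median size of a difference regardless of sign was 0.16 beside 0.07. At an unadjusted p under 0.05 in limma there were 3 of the 10, beside 17.5% of all genes. Single differences ran from -0.36 to 0.77. Above 0 were 3 of the 10 and below it 7, where 57.4% of all genes were below 0.

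**Figure D1:**
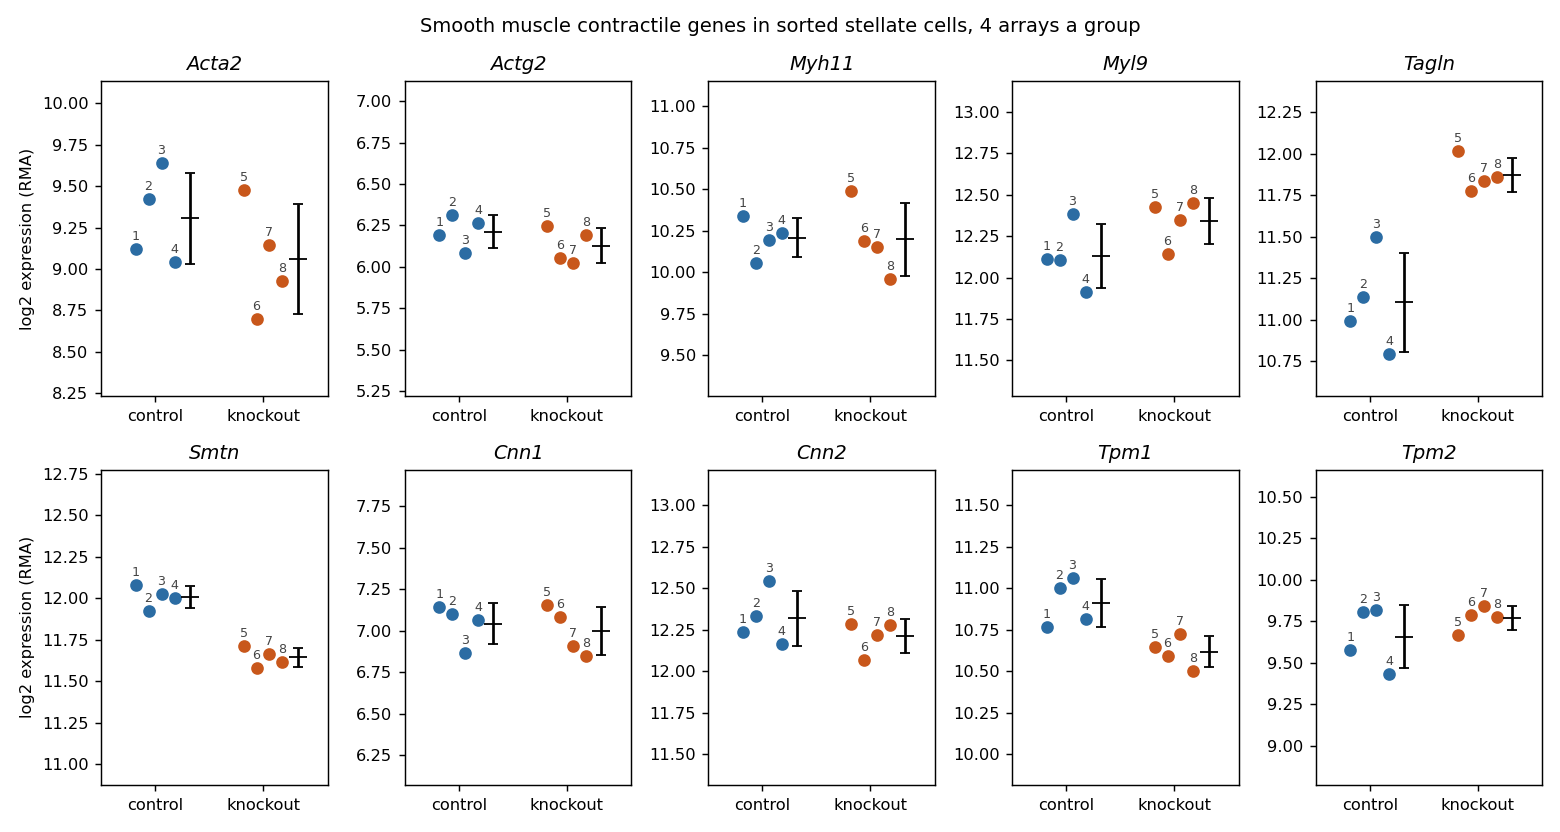
Log2 expression (RMA) of the 10 contractile genes on each array, with the array number beside each point and the mean ± SD (n = 4) as a black bar at the right of each group; every panel spans the same height in log2 units. Tagln lies higher on all 4 knockout arrays than on any control array, Smtn and Tpm1 lie lower, and the groups of the other 7 genes overlap.

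The deleted gene was read first. Lhx2, a LIM homeobox transcription factor, went from a control mean of 11.95 ± 0.08 to 11.29 ± 0.17 in the knockout arrays (SD, n = 4 each), and its groups did not overlap (limma adjusted p = 0.00136). The floxed part is not given in the labels, so its single probe set may lie outside the deleted sequence. Array medians lay between 7.42 and 7.47. Of 13 measured stellate cell markers none lay in the range of unexpressed genes, and Ecm1, Reln and Lrat had control means of 13.93, 13.82 and 13.65. That range was taken from 1194 receptor genes of smell and pheromone sensing, with a 95th percentile of 6.77.

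For the promoters, RefSeq sequence (build GRCm38.p6) was matched for 7 of the 10 genes, and Actg2, Tagln and Myh11 had no entry. CArG boxes were sought because several of these genes are known targets of SRF. An exact CArG box stood in the 250 bases before the start of 2 of the 7 genes, Myl9 and Cnn2, and in 1.4% of 27025 promoters of the same length, 1 per gene. A box with up to 1 letter off stood in 4 of the 7, with Acta2 and Tpm1 added, and in 18.9% of all promoters. The box reads the same on both strands, so 1 search covers both. Below, capitals mark boxes that are exact or 1 letter off. The bases shown for Myl9, Cnn2 and Smtn lie before the annotated gene, and bases inside the gene were left out. Acta2 is shown only at its boxes, which lie inside the annotated gene, as does the Tpm1 box nearer the start. Smtn is included as the gene that fell, and no box was found in its 250 bases.
Myl9, chr2:156775264-156775407, plus strand: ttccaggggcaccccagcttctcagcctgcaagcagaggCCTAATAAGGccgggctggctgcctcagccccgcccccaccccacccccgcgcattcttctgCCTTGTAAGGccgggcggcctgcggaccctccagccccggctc
Cnn2, chr10:79988400-79988599, plus strand: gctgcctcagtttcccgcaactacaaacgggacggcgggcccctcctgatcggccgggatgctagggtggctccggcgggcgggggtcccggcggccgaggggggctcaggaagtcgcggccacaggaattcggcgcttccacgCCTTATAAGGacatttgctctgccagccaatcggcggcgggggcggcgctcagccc
Smtn, chr11:3539293-3539492, minus strand: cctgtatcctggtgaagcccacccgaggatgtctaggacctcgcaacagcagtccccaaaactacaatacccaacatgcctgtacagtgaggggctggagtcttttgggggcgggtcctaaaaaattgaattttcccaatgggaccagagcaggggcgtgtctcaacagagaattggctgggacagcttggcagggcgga
Acta2, chr19:34255438-34255467, minus strand: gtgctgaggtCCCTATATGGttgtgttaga
Acta2, chr19:34255388-34255417, minus strand: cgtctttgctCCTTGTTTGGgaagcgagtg
Positions are counted from the start in the promoter entry, which for Myl9 lies inside the annotated gene, past the last base printed. In Myl9 the exact box was the one farther from that start, at 161 to 152 bases before it, and the second, 1 letter off, lay 99 to 90 bases before it. In Cnn2 the exact box lay 56 to 47 bases before the start. A match of letters is a description of the sequence and does not show that a factor binds there.

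Of the smooth muscle actins, neither passed the test. Acta2, smooth muscle alpha-actin, had log2 levels of 9.12, 9.42, 9.64 and 9.04 on control 1 to 4, and 9.48, 8.70, 9.14 and 8.93 on knockout 5 to 8. The highest knockout array lay above 3 of the 4 control arrays, and the groups overlapped. The difference was -0.24 with a 95% interval from -0.65 to 0.16 (limma adjusted p = 0.61). Acta2 had the widest interval of the 10 genes, and its range within a group, 0.60 on the control arrays and 0.78 on the knockout arrays, was larger than the difference between group means. Actg2, the gamma-actin of enteric smooth muscle, had levels between 6.02 and 6.31 on all 8 arrays, below the 6.77 that bounds unexpressed genes, so it was not told apart from an unexpressed gene and its difference of -0.08 (interval -0.25 to 0.08) is not read as a change. Actin genes are alike in coding sequence, and whether probes of one also read another was not tested.

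Neither of the smooth muscle myosin subunits passed the test. Myh11, the smooth muscle myosin heavy chain and a defining gene of smooth muscle, had levels of 10.34, 10.06, 10.20 and 10.24 on the control arrays and 10.49, 10.19, 10.15 and 9.96 on the knockout arrays. Its difference was -0.01, with an interval from -0.25 to 0.23 and an adjusted p of 0.984 in limma. Both the highest and the lowest of the 8 arrays were knockout arrays, numbers 5 and 8. Myl9, a regulatory light chain of smooth muscle and nonmuscle myosin, had levels of 12.11, 12.10, 12.38 and 11.91 on the control arrays and 12.42, 12.14, 12.35 and 12.45 on the knockout arrays. The knockout mean was above the control mean by 0.21, but the interval ran from -0.02 to 0.45 (limma adjusted p = 0.351), and control 3 lay within the knockout range.

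Tagln, which encodes transgelin (SM22 alpha), an actin-binding protein of smooth muscle and an early marker of that lineage, rose. Its levels were 10.99, 11.13, 11.50 and 10.79 on the control arrays and 12.02, 11.78, 11.84 and 11.86 on the knockout arrays. All knockout arrays lay above all control arrays, and the control arrays were spread over 0.70 where the knockout arrays were spread over 0.24. The mean went from 11.10 ± 0.30 to 11.87 ± 0.10 (SD, n = 4 each), a difference of 0.77 with an interval from 0.47 to 1.07 (limma adjusted p = 0.00679). Since Tagln and Acta2 are often read together as markers of myofibroblasts, their log2 ratio was taken on each array, a comparison chosen after the values were seen. Tagln minus Acta2 was 1.87, 1.71, 1.86 and 1.75 on the control arrays and 2.54, 3.08, 2.70 and 2.93 on the knockout arrays. The ratio was higher on every knockout array, by 1.01 on average (exact two-sided permutation p = 0.0286, the smallest that 4 arrays against 4 allow). Tagln alone already parted the groups and the pair was picked for its values, so this p is no separate test of a change. Within the control group the ratio of Tagln to Acta2 varied far less (SD 0.08) than either gene alone (SD 0.30 for Tagln and 0.28 for Acta2). In the knockout group it varied more (SD 0.24) than Tagln alone (SD 0.10) and less than Acta2 alone (SD 0.33).

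Smtn, smoothelin, a cytoskeletal protein of contractile smooth muscle that binds actin filaments, fell. It read 12.08, 11.92, 12.03 and 12.00 on the control arrays and 11.71, 11.58, 11.67 and 11.62 on the knockout arrays. Smtn was the member with the smallest spread in both groups (SD 0.07 and 0.06), and a gap of 0.21 on the log2 scale, between 11.92 and 11.71, separated them. The difference was -0.36 (interval -0.49 to -0.24, limma adjusted p = 0.00322). It is under 1.5-fold, a size that 523 called genes, or 2.62% of all genes tested, reached, and that Tagln reached among the members.

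The calponins, which bind actin and slow the myosin motor, did not pass the test. Cnn1, the calponin of differentiated smooth muscle, lay between 6.85 and 7.15 on all 8 arrays, close above the 6.77 that bounds unexpressed genes. Its difference was -0.04 (interval -0.24 to 0.15), and the groups covered almost the same range. Cnn2, the calponin found also outside muscle, had levels of 12.24, 12.33, 12.54 and 12.16 on the control arrays and 12.28, 12.06, 12.22 and 12.28 on the knockout arrays. Its difference was -0.11, with an interval from -0.31 to 0.09 (limma adjusted p = 0.666).

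The tropomyosins, coiled-coil proteins that lie along the actin filament, had differences of opposite sign. Tpm1 levels were 10.76, 11.00, 11.06 and 10.82 on the control arrays and 10.65, 10.59, 10.73 and 10.50 on the knockout arrays. The groups did not overlap, but the nearest arrays, control 1 and knockout 7, were 0.04 apart on the log2 scale. The difference of -0.29 (interval -0.48 to -0.11) had a limma adjusted p of 0.0635 and so did not pass. It did pass with quantile normalization (limma adjusted p = 0.0454), with trend and robust fitting (0.0399) and with array weights (0.0257). It also passed without control 1 (0.0382, limma) and without control 1 and control 4 together (0.0313, limma). These were the control arrays with the lowest Tpm1, so leaving them out raised the control mean. Tpm2 levels were 9.58, 9.80, 9.82 and 9.43 on the control arrays and 9.67, 9.79, 9.84 and 9.77 on the knockout arrays, a difference of 0.11 with an interval from -0.09 to 0.32. The log2 ratio of Tpm2 to Tpm1, also chosen after the values were seen, lay between -1.39 and -1.19 on the control arrays and between -0.98 and -0.73 on the knockout arrays. It was higher on every knockout array, by 0.41 on average (exact two-sided permutation p = 0.0286). Since Tpm1 alone already parted the groups, this p is no separate test of a change either.

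**Figure D2:**
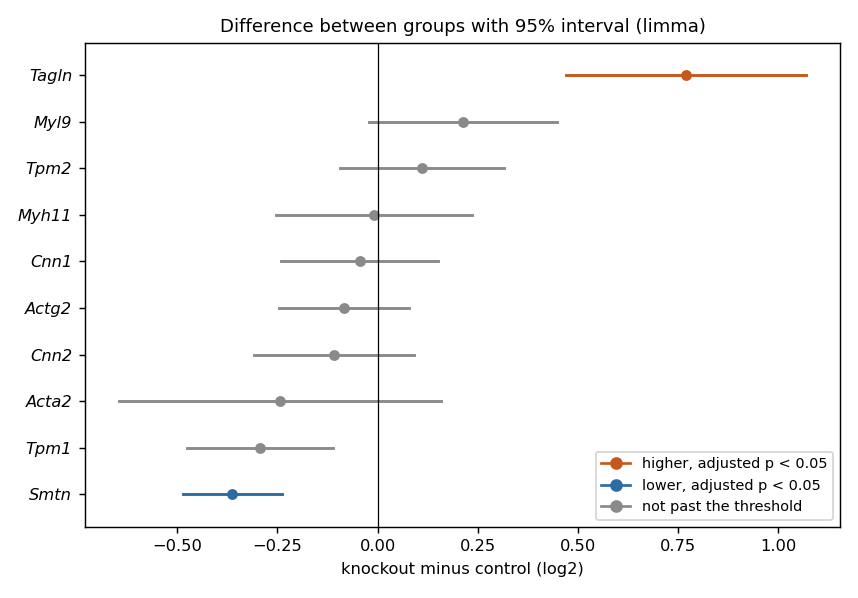
Knockout minus control in log2 units for each contractile gene, as limma's estimate (point) with its 95% interval (line), sorted by size; orange marks genes called higher and blue genes called lower. The intervals of Tagln, Tpm1 and Smtn leave out 0, that of Acta2 reaches from -0.65 to 0.16, and Tpm1 did not pass after adjustment.

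Within a group, several of the genes moved together from array to array. After the group mean was taken off, control 3 stood above its group by 0.33 for Acta2, 0.39 for Tagln, 0.25 for Myl9 and 0.23 for Cnn2, and it was the highest control array for 6 of the 10 genes. Control 4 was the lowest control array for 5 genes, Acta2, Tagln, Myl9, Cnn2 and Tpm2, and the highest for 0. In the knockout group, knockout 5 was the highest array for 7 genes and knockout 6 the lowest for 5, with Acta2 at 0.42 above and 0.36 below the group mean. Smtn, Cnn1, Actg2 and Myh11 did not follow this order in the control group: control 3 had the lowest level there for Cnn1 and Actg2, and stood 0.02 above the mean for Smtn and 0.01 below it for Myh11. Replicates have no order, and no batch is given in the labels, so no batch was tested.

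**Figure D3:**
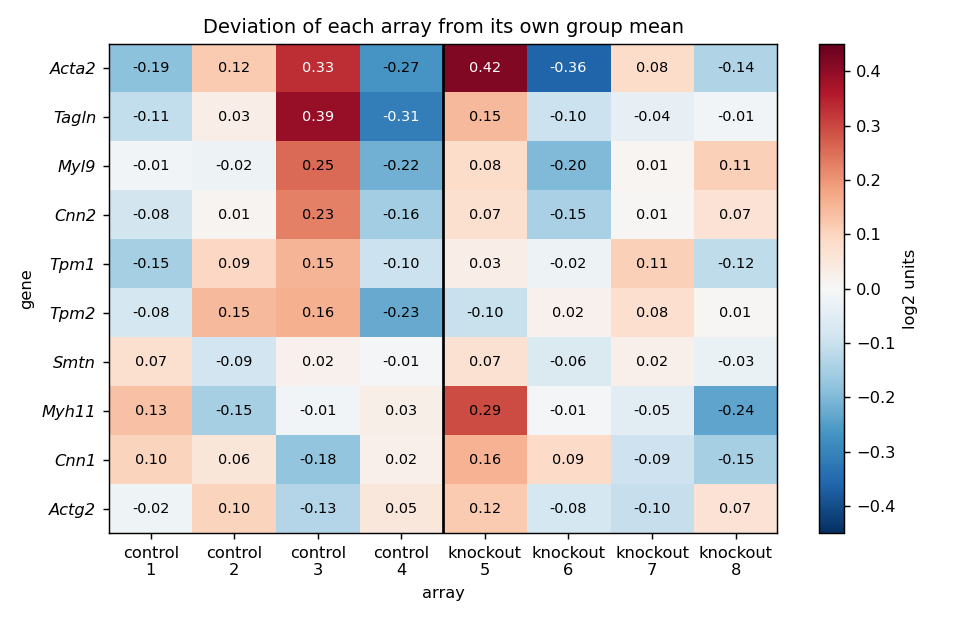
Deviation of each array from the mean of its own group, in log2 units, for the 10 contractile genes (rows) and the 8 arrays (columns; the black line parts control from knockout); red is above and blue below the group mean. Acta2, Tagln, Myl9 and Cnn2 share high values on control 3 and low values on control 4, while Smtn deviates by less than 0.1 on every array.

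Outside the members, the genes whose deviations were most like those of Acta2 over the 8 arrays were Rap1gap2, a GTPase-activating protein for Rap (Pearson r = 0.95, Spearman rank correlation 0.95), and Ppp1r14b, an inhibitor of protein phosphatase 1 (r = 0.92, rank correlation 0.93). Zbp1, a sensor of nucleic acids, Wdr4, a WD-repeat protein, and Hacd1, an enzyme of long-chain fatty acid synthesis, followed at r of 0.91, 0.91 and 0.90. They were the top 5 of 13679 genes searched, so high values are there by selection and no p is given. Without control 3 and knockout 5, whose Acta2 deviations lay farthest from the median deviation, r for these 5 genes lay between 0.85 and 0.98 over 6 arrays.

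The wider contractile apparatus also changed in both directions. Of 40 measured genes of other filament, anchoring and actin-linked proteins, 5 rose, 6 fell and 29 did not pass, a share called of 27.5% beside 7.38% of all genes (3.76% higher, 3.63% lower). Their median difference was -0.04. The genes that rose were Fhl2, a LIM-only cofactor (0.98, from 9.27 to 10.25), Palld, palladin, an actin-crosslinking protein (0.82, from 8.79 to 9.61), Myh10, nonmuscle myosin heavy chain IIB (0.71, from 10.06 to 10.76), Synpo2, an actin-bundling protein of muscle (0.59, from 7.96 to 8.55), and Tns1, tensin 1, which links actin to integrins (0.29, from 12.99 to 13.27). Each of these was higher on all 4 knockout arrays than on any control array, with adjusted p of 0.0111 or less in limma.

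The 6 genes that fell were Zyx, Vcl, Fhl1, Cnn3, Pdlim7 and Tgfb1i1. Zyx, zyxin, a protein of focal adhesions, went from 11.01 ± 0.07 to 10.31 ± 0.27 (SD, n = 4 each), and Vcl, vinculin, from 12.20 ± 0.09 to 11.86 ± 0.06. Fhl1, a LIM-only protein of muscle, read 13.04, 12.97, 13.03 and 13.00 on the control arrays and 12.44, 12.37, 12.37 and 12.35 on the knockout arrays, a difference of -0.63. Cnn3, the third calponin and the one of the family that passed the test, had a difference of -0.31 (SE 0.04) with an SD of 0.03 and 0.01 in the 2 groups. Pdlim7, a PDZ and LIM domain protein, and Tgfb1i1 (Hic-5), a focal adhesion adaptor, had differences of -0.36 and -0.40. Of these 6 genes, Tgfb1i1 lost its call without each single array other than knockout 7 (limma adjusted p up to 0.135).

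Other myosin and actin genes gave values without a call. Actb, cytoplasmic beta-actin, had a difference of -0.04, and Myh9, nonmuscle myosin heavy chain IIA, of -0.05. Myl12a and Myl12b, the regulatory light chains beside Myl9, had differences of -0.24 and -0.14 with groups that did not overlap (limma adjusted p = 0.0536 and 0.187). Mylk, the kinase that phosphorylates the light chain, had a difference of 0.12, and Ppp1r14a, an inhibitor of the myosin phosphatase, of 0.28 (limma adjusted p = 0.144). Cald1, caldesmon, and Des, desmin, had differences of -0.08 and 0.07. Actg1 had no probe set that names it alone in the annotation and was not measured on its own. The value of Actb came from a probe set that names Actb alone.

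Among the regulators, SRF and one of its coactivators fell. Of 15 measured genes that act on contractile genes or their activity, 0 rose and 3 fell. The share called was 20.0%, where 3.63% of all genes were called lower, and the median difference was -0.18. At an unadjusted p under 0.05 in limma there were 9 of the 15, beside 17.5% of all genes. These 9 were of both signs, with Mrtfa (0.15) and Elk1 (0.14) above 0. Srf, the transcription factor that binds CArG boxes, read 10.93, 10.90, 10.75 and 10.89 on the control arrays and 10.21, 10.11, 10.42 and 10.34 on the knockout arrays. The difference of -0.60 (interval -0.77 to -0.43) had a limma adjusted p of 0.0012, and no knockout array reached any control array. Mrtfb, the coactivator MRTF-B, went from 11.24 ± 0.13 to 10.74 ± 0.04 (SD, n = 4 each), a difference of -0.51. Elk3, an ETS factor that can pair with SRF, had a difference of -0.34 (limma adjusted p = 0.0246), a call lost without control 1, control 4, knockout 5, knockout 6 or knockout 8 (adjusted p up to 0.0746). Mrtfa, the other MRTF, had a difference of 0.15 (limma adjusted p = 0.273), and Rhoa, a small GTPase of actin signalling, of -0.05. Myocd, myocardin, the coactivator of vascular smooth muscle, had means of 5.83 and 5.80, below the 6.77 that bounds unexpressed genes.

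**Figure D4:**
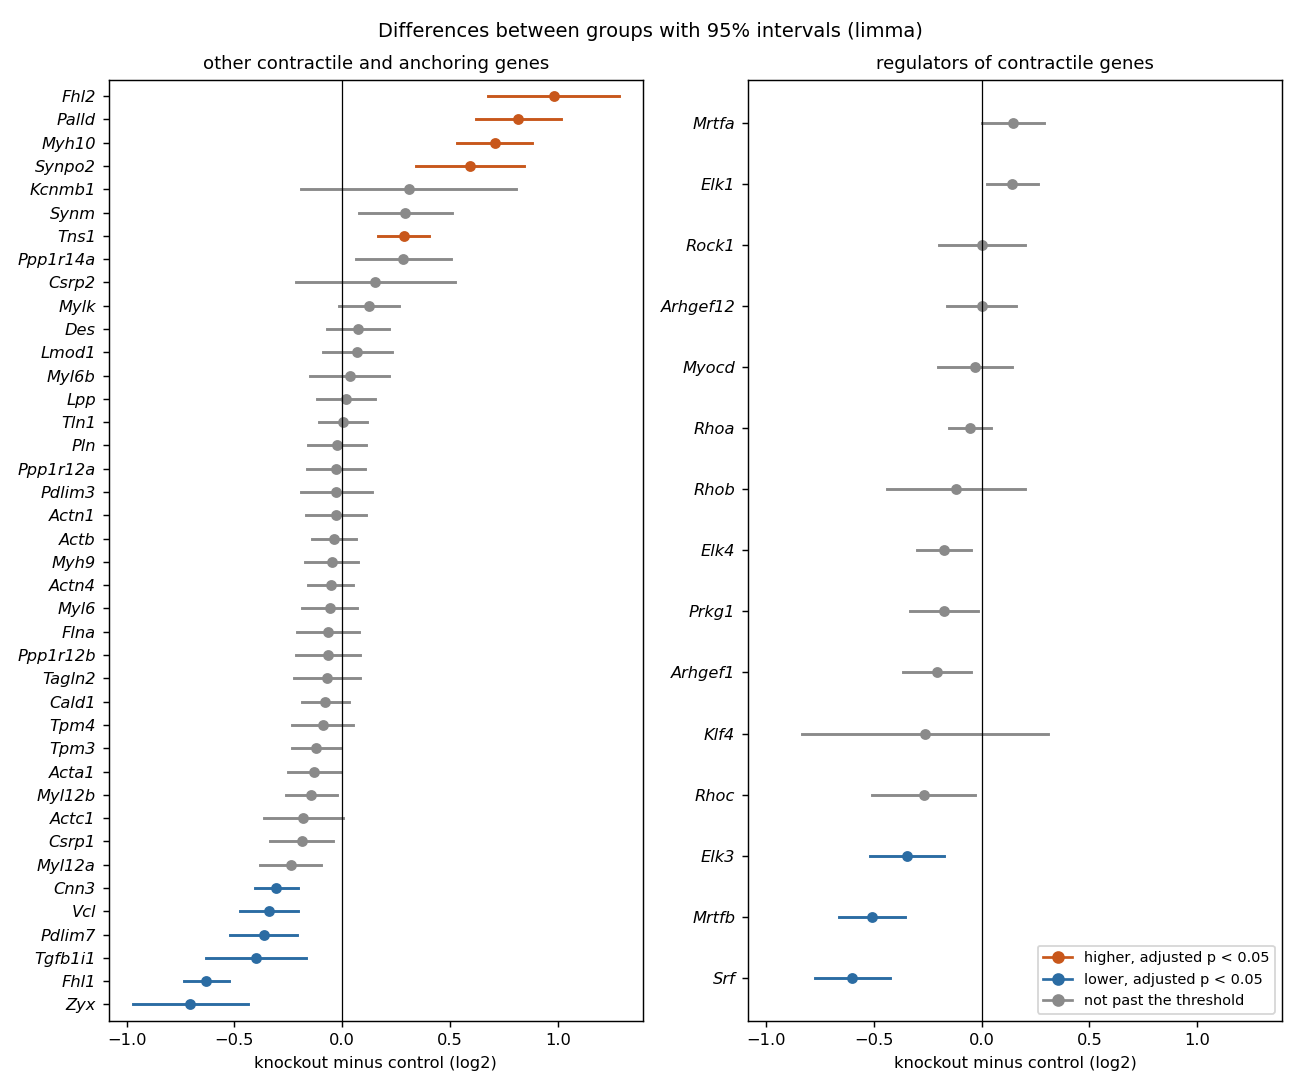
Knockout minus control in log2 units with limma's 95% intervals for 40 other contractile and anchoring genes (left) and 15 regulators (right), sorted by size; orange is higher and blue lower at an adjusted p under 0.05, grey did not pass. On the left 5 genes are orange and 6 blue, and on the right Srf, Mrtfb and Elk3 are blue and none is orange.

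Markers of the other cells that the sort could hold were read beside these values, and their part in the results was not tested. Of 16 markers of vascular smooth muscle and mural cells, 1 rose (Notch3, 0.57) and 3 fell, Rgs4 (-1.60), Mcam (-1.09) and Kcnj8 (-0.39), and their mean level was 8.58 to 8.69 on the control and 8.44 to 8.55 on the knockout arrays. Of the 16 markers, 6 had means below the 6.77 of unexpressed genes, Myocd, Pln, Casq2, Higd1b, Npnt and Ntrk3. Others of the list lay above it, such as Lmod1, Kcnmb1 and Mustn1, with control means of 7.34, 8.05 and 13.62. Their differences were 0.07, 0.31 and 0.14, without a call. Of 12 portal fibroblast markers 5 rose, Cd34 (3.08), Dpep1 (2.37), Dpt (2.28), Eln (0.81) and Mfap4 (0.39), and 7 did not pass. Differences below 0 were found for 5 of the 12, Entpd2 (-0.295), Thy1 (-0.10), Msln (-0.02), Pi16 (-0.01) and Gli1 (-0.01). The mean level of the list was 7.69 to 7.84 on the control and 8.46 to 8.64 on the knockout arrays, with Cd34, Dpep1 and Dpt adding most to the difference. Of 13 stellate cell markers 5 fell, Gfap, Rgs5, Hand2, Hgf and Reln. Over all genes, 3.76% were called higher and 3.63% lower. In bulk RNA, fewer cells of a type and less RNA per cell cannot be told apart.

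The mean levels of the hepatocyte and endothelial marker lists varied from array to array more than between groups. The mean of 10 hepatocyte markers ran from 9.06 (control 4) to 11.29 (control 1) in the control and from 9.54 to 11.13 in the knockout group, and 0 of them were called (1 had an unadjusted p under 0.05 in limma). The mean of 12 sinusoidal endothelial markers ran from 8.62 (control 1) to 11.13 (control 4) in the control and from 8.69 (knockout 5) to 9.98 in the knockout group, and 1 fell, Clec4g. Of these 12 markers, 11 had differences below 0, where 57.4% of all genes did, with a median difference of -0.595 beside -0.02 over all genes. The groups of Clec4g (-1.23) did not overlap. Eng, the marker with a difference above 0, lay between 13.46 and 13.66 on all 8 arrays and did not vary as the list did. Control 4, with the highest endothelial level, had the lowest Acta2 and Tagln of its group, while control 1, with the lowest endothelial level, had the next lowest of both. Of 10 macrophage markers 1, Cd68, fell, and of 5 cholangiocyte markers 0 were called (0 with an unadjusted p under 0.05 in limma). Beside these counts, 7.38% of all genes were called, 3.76% higher and 3.63% lower. The single calls of Clec4g and Cd68, in lists of 12 and 10 markers, are therefore not read as a change of those cell types. Without control 1 and control 4, Tagln passed at a difference of 0.56 (limma adjusted p = 0.0437) and Smtn at -0.33 (limma adjusted p = 0.0485). The difference of Acta2 was then -0.47 (limma adjusted p = 0.365). Since these arrays had the lowest Acta2 and Tagln of the control group, leaving them out raised the control means of both genes. Higher control means make the Tagln difference smaller and the Acta2 difference larger. Why these arrays were low in both genes was not tested. Whether RNA of hepatocytes or endothelial cells shaped the differences was not tested.

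**Figure D5:**
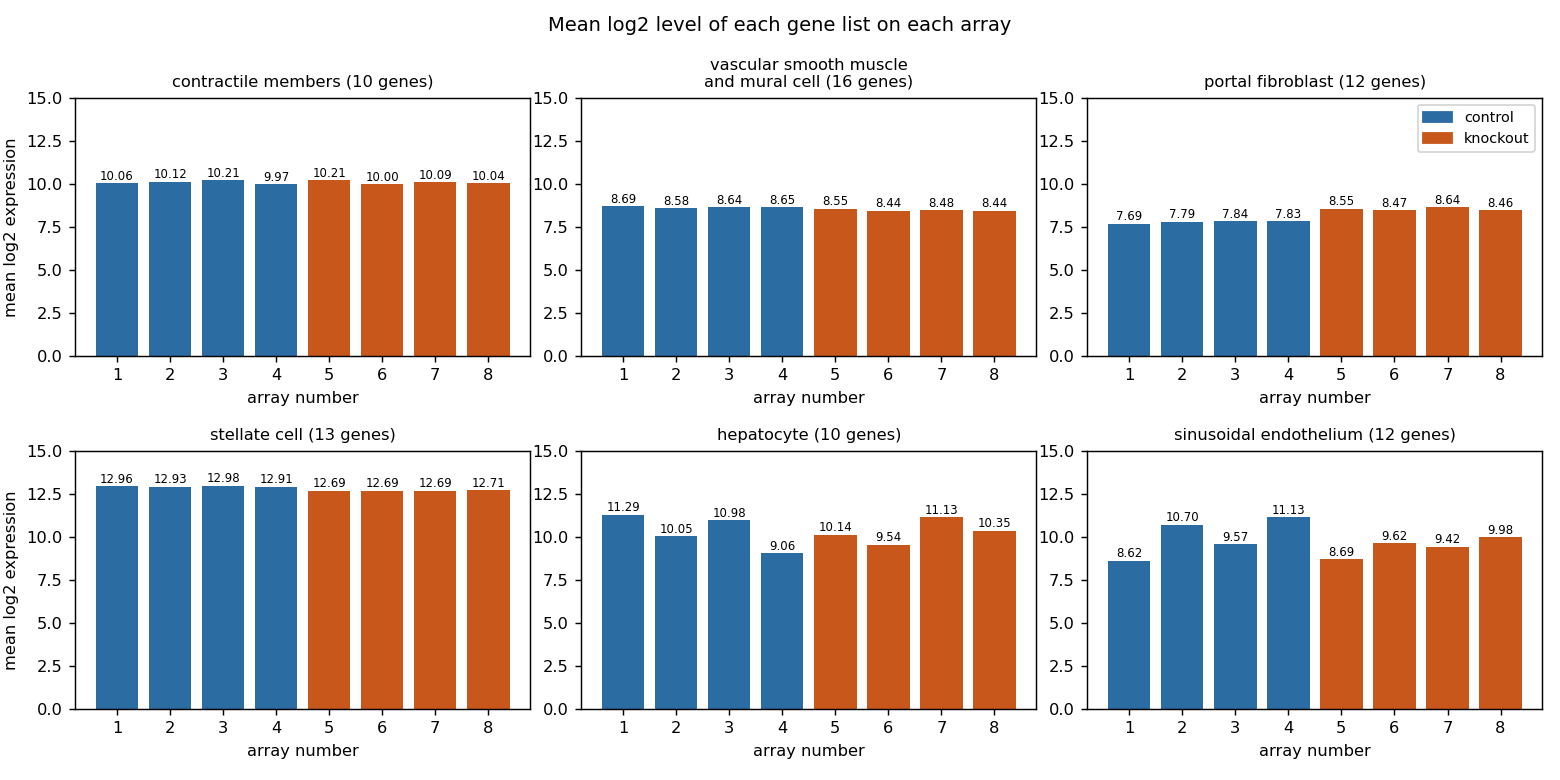
Mean log2 expression of each gene list on each of the 8 arrays (bars from 0; blue control 1 to 4, orange knockout 5 to 8), for the 10 contractile genes and 5 marker lists. The mean of the contractile genes stays between 9.97 and 10.21, the portal fibroblast list is higher on every knockout array, and the hepatocyte and endothelial lists vary within both groups.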

How the data were processed

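The deposited log2 values, 1 per probe set and array, were normalized with RMA (Robust Multichip Algorithm), as the label protocol and the submitters' processing notes state, per the labels. RMA understates differences at the dim and the bright end. Its version, the genome build and any batch were not given in the sources used here, and each sample was 1 array (150 ng of RNA). Of 35556 probe sets, 21789 had 1 gene symbol in the platform annotation, which gave 19938 genes by the highest mean, and probe sets with several symbols were left out. Levels of different genes are not comparable, since probe sets differ in response.

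Groups came from the sample titles. The fit of knockout minus control used limma 3.58.1 (lmFit, eBayes) under R 4.3.3. Its two-sided p-values were adjusted by Benjamini-Hochberg across the 19938 genes, and the threshold was 0.05. Exact permutation tests ran over 70 assignments. On simulated data of the 19938 genes of this comparison, the test found 76% of 50 genes shifted by 0.5 log2 units and 98% of 50 shifted by 1, with 11 false calls (5.61% of calls). The simulation drew each gene independently from a normal distribution and shifted far fewer genes than were called here, while several members moved together across arrays. Its rates therefore hold for the simulated data, and the rates of the real comparison are not known.

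The members and lists were chosen with earlier results of these data known. Named genes were all members, Lhx2, the called genes of the pathway lists (up to 8 each) and of the marker lists (up to 4), and the 5 genes most like Acta2. Others were named after their values were seen, to complete counts or to give values for known parts of the apparatus. Alternatives were 2 normalizations, a filter on dim genes, trend and robust fitting, array weights, 2 treatments of probe sets, leaving out arrays, and 2 thresholds.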

Additional observations from a re-analysis of the deposited data

Results flagged for a closer look

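Zyx was highest on control 3 at 11.11, set apart from the other control arrays, which lay between 10.97 and 10.98. The distance to the nearest array was 0.89 of the whole range, above the 0.829 that marks an outlier among 4 samples. It was 1 of 50 groups of arrays looked at over 25 genes, where chance gives about 1 in 20. The call of Zyx was kept without control 3 but not without control 1 and control 4 together.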

How the results depend on the processing

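No paired analysis was possible because the groups share no replicate numbers. Tagln, Smtn and Lhx2 kept their direction and call in each of the 17 alternatives, with highest adjusted p of 0.0437, 0.0485 and 0.0252 in limma. Tpm1 (-0.29) passed with quantile normalization (-0.29), trend and robust fitting (-0.29), array weights (-0.31) and without control 1 and control 4 (-0.42), and over single arrays left out lay between -0.344 and -0.244, which made 2 members lower in place of 1 in each of these 4 and without control 1. Over single arrays left out, 1 to 2 members were lower, with 2 only without control 1. No lower member reached 1.5-fold, a count of 0. Differences near 0 turned sign: Myh11 was 0.0104 with array weights, 0.0707 without control 1 and control 4 and -0.107 to 0.07 over single arrays left out, Cnn1 was 0.0173 without control 1 and control 4 and -0.104 to 0.0053 over single arrays, and Tpm2 was -0.0424 without control 1 and control 4. Without control 1 and control 4, the other contractile genes had 3 risen and 3 fallen (Synpo2, Pdlim7, Tns1, Zyx and Tgfb1i1 lost their calls, at an adjusted p of 0.0622, 0.112, 0.078, 0.0545 and 0.238), and all genes 371 higher and 405 lower in place of 749 and 723, with fewer arrays. At an adjusted p under 0.01 these were 386 and 389, and with at least 1.5-fold 284 and 239, where 2 other contractile genes and 1 regulator were lower. Actg2 has no value under the filter on dim genes. What moved the calls was not tested.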
